A study of Mus musculus with 6 samples.

Results

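Heat shock proteins are chaperones, which bind unfolded or partly folded proteins and help them reach or regain their shape. The 10 heat shock genes described here were chosen by symbol from a fixed list: Hsp90aa1, Hsp90ab1, Hspa8, Hspa1a, Hspa1b, Hspa4, Hspd1, Hspe1, Dnaja1 and Dnajb1. All 10 were among the 17067 genes of the deposited tables. The group is known as the cytosolic heat shock proteins, although the products of 2 of its genes, Hspd1 and Hspe1, work in the mitochondrial matrix. RNA was sequenced from CD45+CD11b+F4/80+ cells, which are macrophages, sorted from the colon of C57BL/6 mice aged 10 weeks. There were 3 samples from Gsdmd-/- mice and 3 from wild-type (WT) mice. Both groups had colitis induced with dextran sulfate sodium (DSS), so no sample is free of inflammation. Whether each sample is a different mouse is not in the labels, and the spread that p-values are set against may therefore be technical. The design asks how the macrophage transcriptome differs without Gsdmd, the gene of the pore-forming protein gasdermin D.

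HSP70 chaperones hold short exposed stretches of a client protein and let go in a cycle driven by ATP. J proteins (the DNAJ family) bring clients to HSP70 and speed its ATP hydrolysis, and exchange factors reset it. HSP90 acts on nearly folded clients such as kinases and receptors, while the mitochondrial chaperonin HSP60, with its lid HSP10, encloses proteins inside the organelle. In stressed cells the transcription factor HSF1 binds heat shock elements, which are inverted GAA units, before the genes Hspa1a, Hspa1b, Hsp90aa1 and Dnajb1 and raises their transcription. Hspa8 and Hsp90ab1 encode the constitutive forms.

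The sequences before the start sites are shown because heat shock elements stand there in the best known targets of HSF1. RefSeq windows of 250 bases before the start (GRCm38.p6) were matched for 7 of the 10 genes, in 11 windows, and not for Hsp90aa1, Hsp90ab1 and Hspa8. Both strands were searched for alternating GAA and TTC units spaced by 2 bases, written GAANNTTC or TTCNNGAA for 2 units and GAANNTTCNNGAA or TTCNNGAANNTTC for 3, where a 3-unit run also contains the 2-unit ones. At least 2 units stood before 5 of the 7 genes (Hspa1a, Hspa1b, Hspd1, Hspe1 and Dnaja1), and before 14.5% of all 27025 genes with a window. At least 3 units stood before Hspd1 and Hspe1, and before 0.514% of all genes. These 2 genes point away from each other on chromosome 1 and share 1 run of 4 units, a length found before 0.0259% of genes. The window of Hspe1 carries that longest run, and those of Hspa1a and Dnaja1 are added to show the 2-unit form. The run is in capitals, and each window is read 5′ to 3′ along its gene.
Hspe1, chr1:55087898-55088147, plus strand: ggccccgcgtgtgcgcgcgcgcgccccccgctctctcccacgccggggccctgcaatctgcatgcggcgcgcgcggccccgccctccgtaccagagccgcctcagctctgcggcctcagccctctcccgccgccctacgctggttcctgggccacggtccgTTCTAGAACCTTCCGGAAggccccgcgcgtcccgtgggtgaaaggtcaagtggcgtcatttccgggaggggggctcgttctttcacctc
Hspa1a, chr17:34972157-34972406, minus strand: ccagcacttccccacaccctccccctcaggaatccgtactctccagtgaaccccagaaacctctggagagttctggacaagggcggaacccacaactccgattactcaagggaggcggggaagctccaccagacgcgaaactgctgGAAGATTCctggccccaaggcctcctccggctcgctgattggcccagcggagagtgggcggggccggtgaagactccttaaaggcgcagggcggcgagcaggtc
Dnaja1, chr4:40722218-40722467, plus strand: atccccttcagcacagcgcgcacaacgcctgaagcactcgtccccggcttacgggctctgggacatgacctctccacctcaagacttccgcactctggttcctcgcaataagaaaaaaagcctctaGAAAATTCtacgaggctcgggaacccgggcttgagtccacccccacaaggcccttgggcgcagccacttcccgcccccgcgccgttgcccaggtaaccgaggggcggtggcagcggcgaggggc

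The run before Hspe1 lies 72 to 89 bases before its start. Read along Hspd1 it is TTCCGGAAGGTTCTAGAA, 127 to 144 bases before 1 of 2 Hspd1 start sites, which is 216 bases from the start of Hspe1, and the other Hspd1 window holds no run. The window of Hspa1b differs from that of Hspa1a at 3 of 250 bases and holds the same 2-unit run. No run was found in the windows of Hspa4 or Dnajb1, which says only that these letters are not in them. A match of letters is a description and does not show binding.

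The unit is taken to be FPKM, in which fragments are scaled to transcript length and library size, and the steps of the values gave an estimated 20.3 M to 20.5 M fragments in Gsdmd-/- samples and 19.9 M to 20.4 M in WT samples. Gsdmd, the deleted gene, was at 28.5 to 29.7 FPKM in Gsdmd-/- samples and 97.35 to 99.35 FPKM in WT samples, lower in the samples labelled as knockout. The 10 macrophage markers were all present, and 4 rose and 5 fell in the test described below, beside 40.6% and 36.9% of all tested genes. With the length and GC trend described below removed, 1 rose and 8 fell, beside 30.4% and 30.1%. The genes of the 3 sort markers fell. Itgam, which encodes CD11b, averaged 91.3 FPKM in Gsdmd-/- samples and 176.5 FPKM in WT samples (log2 change -0.94, and -0.65 with the trend removed). Ptprc (CD45) averaged 57.9 FPKM in Gsdmd-/- samples and 92.4 FPKM in WT samples (-0.67, and -0.17 with the trend removed). Adgre1 (F4/80) averaged 216 FPKM in Gsdmd-/- samples and 291 FPKM in WT samples (-0.43, and -0.28 with the trend removed). Lyz2 was the most abundant, at 5469 FPKM in Gsdmd-/- samples and 5008 FPKM in WT samples. The 9 listed markers of T, NK, B and plasma cells were below 1 FPKM in each sample. Fibroblast markers summed to 82.2 to 84.1 FPKM in Gsdmd-/- samples and 30.15 to 31.8 FPKM in WT samples, with 6 of the 6 tested higher and 0 of the 8 listed at 0 in all samples. Of these 6, Col3a1 entered the test only through its Gsdmd-/- level (1.24 FPKM, against 0.657 FPKM in WT samples). Not tested were Lum (0.08 FPKM in Gsdmd-/- samples and 0.113 FPKM in WT samples) and Pdgfra (0.287 FPKM in Gsdmd-/- samples and 0.183 FPKM in WT samples). Endothelial markers summed to 26.6 to 31.1 FPKM in Gsdmd-/- samples and 56 to 59.4 FPKM in WT samples, which was nearly all Kdr (26.2 FPKM in Gsdmd-/- samples and 56.4 FPKM in WT samples), while Cdh5 was at 1.46 FPKM in Gsdmd-/- samples and 1.24 FPKM in WT samples and Pecam1 at 0.86 FPKM in Gsdmd-/- samples and 0.363 FPKM in WT samples. Neutrophil markers summed to 10.5 to 12.6 FPKM in Gsdmd-/- samples and 7.69 to 8.71 FPKM in WT samples. Most of this was Mmp8 (6.17 FPKM in Gsdmd-/- samples and 4.87 FPKM in WT samples) and Cxcr2 (3.28 and 2.39 FPKM). These were the 2 tested, and 2 rose as deposited, 2 with the trend removed and 0 in TPM (described below). Not tested were S100a8 (1.19 and 0.417 FPKM), S100a9 (0.6 and 0.37 FPKM) and Ly6g (0 and 0.02 FPKM). Epithelial markers summed to 1.78 to 1.99 FPKM in Gsdmd-/- samples and 2.95 to 3.43 FPKM in WT samples, with the 1 tested lower. That gene, Cdh1, made up nearly all of the sum (1.88 FPKM in Gsdmd-/- samples and 3.15 FPKM in WT samples). Krt8 (0 and 0.01 FPKM) and Vil1 (0.00667 and 0.0167 FPKM) were near 0, and only 3 of the 6 markers chosen were listed. The part of these differences in the results below was not tested. In bulk samples, fewer cells of a type and less RNA per cell cannot be told apart.

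All 10 genes passed the filter of at least 1 FPKM in at least 3 samples, and genes were compared with limma on log2(FPKM + 1) over all 10005 genes that passed. A gene is said to have risen or fallen in Gsdmd-/- macrophages where its Benjamini-Hochberg adjusted p was under 0.05. Hsp90aa1, Hsp90ab1, Hspa8, Hspe1 and Dnajb1 rose, Hspa1b, Hspa4, Hspd1 and Dnaja1 fell, and Hspa1a did not pass. That is 5 of 10 higher, where 40.6% of all tested genes rose, and 4 of 10 lower, where 36.9% fell. The groups did not overlap for 5 genes on the higher and 4 on the lower side, beside 41.2% and 38.3% of all tested genes. The median log2 change of the 10 was 0.03, as was that of all tested genes. The counts of heat shock genes called were therefore near the background, and what follows is about single genes.

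**Figure D1:**
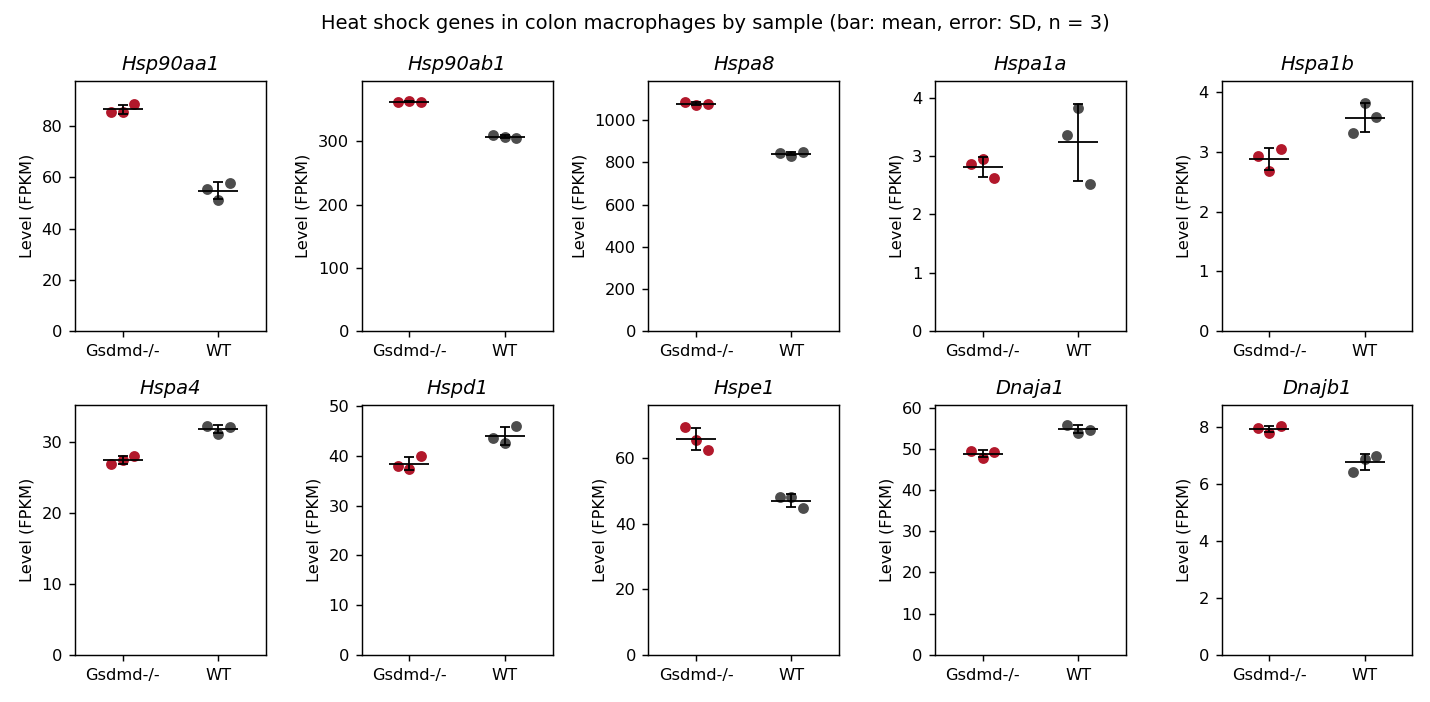
Level of each heat shock gene in each sample, in FPKM on axes that start at 0, with Gsdmd-/- samples in red and WT samples in grey. Bars mark the mean and SD of 3 samples. Hsp90aa1 lies at 85.3 to 88.5 FPKM in Gsdmd-/- samples and at 51.1 to 57.7 FPKM in WT samples, while the groups overlap for Hspa1a.

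Log2 changes followed transcript length across the tested genes (Spearman rho -0.65 over 9852 genes, which are not independent replicates), and a smooth trend on length and GC content held 50.9% of their variance. The transcript lengths used, the median where a gene has several, run from 774 bases for Hspe1 to 4618 bases for Hspa4, so the change of each of the 10 is given as deposited and, where it differs in call or direction or by over 1.5 times, with that trend removed. Of the 10, 6 then rose and 3 fell, beside 30.4% and 30.1% of all genes tested that way. Rescaling to TPM, in which each sample sums to the same total, gave a median log2 change over all tested genes of -0.17. On that scale 3 of the 10 heat shock genes rose and 5 fell, beside 25.0% and 51.0% of tested genes. After quantile normalization 3 rose and 4 fell, beside 41.0% and 36.2%.

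**Figure D2:**
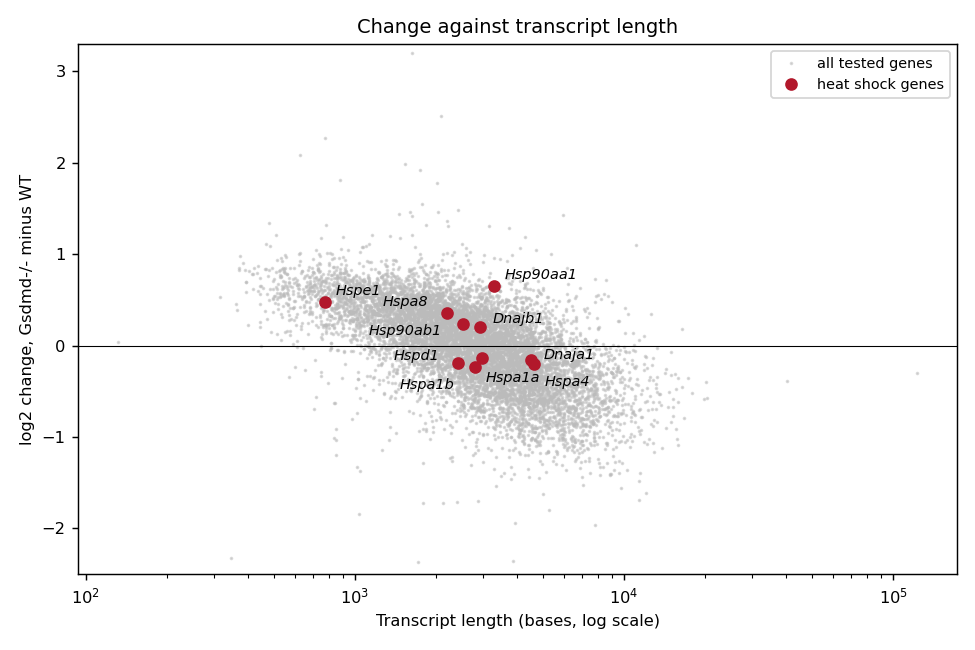
Log2 change (Gsdmd-/- minus WT) against transcript length in bases on a log scale, for the tested genes with a known length (grey) and the heat shock genes (red). Short transcripts such as Hspe1 lie mostly above 0 and long ones mostly below, and Hsp90aa1, at 3281 bases and 0.65, lies above most genes of its length.

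The inducible HSP90 gene, Hsp90aa1 (chromosome 12, positions 110691036 to 110696395 in GRCm38.p6), had the largest change of the 10. It measured 85.3, 85.6 and 88.5 FPKM in Gsdmd-/- samples and 55.4, 51.1 and 57.7 FPKM in WT samples. Each Gsdmd-/- sample was above each WT sample. The means were 86.5 ± 1.74 and 54.8 ± 3.33 FPKM (SD, n = 3 each), 1.58 times as high in Gsdmd-/- macrophages, with a log2 change of 0.65 (SE 0.0425, limma adjusted p = 5.31e-08). Its log2 change was larger in size than that of 85.1% of tested genes. After removal of the length and GC trend the change was 0.91 (limma adjusted p = 1.92e-08). The gene rose under each of the 18 settings tried, with log2 changes of 0.43 to 0.93.

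Hsp90ab1 (chromosome 17, 45567778 to 45573261), the constitutive HSP90 gene, was at 362, 363 and 362 FPKM in Gsdmd-/- samples and at 309.7, 307 and 306 FPKM in WT samples. The groups were far apart relative to their spread, with means of 362 ± 0.775 and 307 ± 2.15 FPKM (SD, n = 3 each). The log2 change was 0.24 (SE 0.0236, limma adjusted p = 1.92e-06). In TPM it was 0.02 (limma adjusted p = 0.598), and after quantile normalization -0.03 (limma adjusted p = 0.342), so the call was lost on these scales. It held with the trend removed (0.17, limma adjusted p = 1.25e-05) and under median-ratio scaling. The reading frames of the 2 HSP90 genes are 76.8% identical.

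Among the HSP70 genes, Hspa8 (chromosome 9, 40801276 to 40805202), which encodes the constitutive cytosolic HSP70, was the most abundant of the 10. It was at 1085, 1072 and 1079 FPKM in Gsdmd-/- samples and at 844, 833 and 849 FPKM in WT samples. Its lowest Gsdmd-/- sample was well above its highest WT sample, and the means were 1079 ± 6.55 and 842 ± 8.42 FPKM (SD, n = 3 each). Hspa8 rose by 0.36 on the log2 scale (SE 0.0220, limma adjusted p = 3.36e-08), and by 0.27 with the trend removed. In TPM its log2 change was smaller, at 0.14 (limma adjusted p = 6.26e-05), and after quantile normalization it was -0.08 (limma adjusted p = 0.00807). The gene holds 3 small nucleolar RNA genes on its own strand, and the authors' handling of such overlaps is not known.

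The stress-inducible HSP70 genes stood at the bottom of the order, at about 3 FPKM, above 20.4% of tested genes for Hspa1a and 21.6% for Hspa1b. Hspa1b (chromosome 17, 34956429 to 34959238) was at 2.93, 2.67 and 3.04 FPKM in Gsdmd-/- samples and at 3.32, 3.81 and 3.58 FPKM in WT samples. Each Gsdmd-/- value was below each WT value. Its log2 change was -0.24 (SE 0.0696, limma adjusted p = 0.00829), a level of 0.807 of the WT mean, and -0.44 with the trend removed. After quantile normalization the change was -0.15 (limma adjusted p = 0.0732), which does not pass.

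Hspa1a (chromosome 17, 34969359 to 34972156) was at 2.87, 2.95 and 2.62 FPKM in Gsdmd-/- samples and at 3.36, 3.83 and 2.52 FPKM in WT samples. The groups overlap, since the third WT sample was below the 3 Gsdmd-/- samples. The log2 change was -0.14 (95% interval -0.37 to 0.08, limma adjusted p = 0.228). It passed without WT replicate 3 (-0.27, limma adjusted p = 0.0114), in TPM (-0.35, limma adjusted p = 0.0113) and after trend removal (-0.33, limma adjusted p = 0.0139). The reading frames of Hspa1a and Hspa1b are 99.6% identical, with 8 differences in 1926 aligned bases, so fragments could be split between them in ways the tables do not show, and Hspa1a also overlaps a gene on the other strand over 2225 bases. Their summed level was 5.8, 5.62 and 5.66 FPKM in Gsdmd-/- samples and 6.68, 7.64 and 6.10 FPKM in WT samples. That sum was lower in each Gsdmd-/- sample. At this level an estimated 152 to 226 fragments stood behind a value of either gene.

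Hspa4 (chromosome 11, 53259814 to 53300479), an HSP110-type relative of HSP70 that serves as an exchange factor, was at 26.85, 27.4 and 28.0 FPKM in Gsdmd-/- samples and at 32.2, 31.1 and 32.0 FPKM in WT samples. The groups did not overlap, and the log2 change was -0.21 (SE 0.0373, limma adjusted p = 0.000304). Its transcript of 4618 bases is one of the long ones. With the trend removed its direction turned, to 0.15 (limma adjusted p = 0.00154).

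Of the J proteins, Dnajb1 (chromosome 8, 83608175 to 83612653), a class B partner of HSP70 induced by stress, was at 7.98, 7.82 and 8.05 FPKM in Gsdmd-/- samples and at 6.45, 6.88 and 6.98 FPKM in WT samples. It rose by 0.20 on the log2 scale (SE 0.0537, limma adjusted p = 0.00410). In TPM its change was 0.01 (limma adjusted p = 0.9).

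Dnaja1 (chromosome 4, 40722468 to 40734965), a class A J protein, was at 49.5, 47.8 and 49.2 FPKM in Gsdmd-/- samples and at 55.8, 53.9 and 54.5 FPKM in WT samples. Each Gsdmd-/- sample was lower, and the log2 change was -0.16 (SE 0.0332, limma adjusted p = 0.000783). With the trend removed it was 0.32 (limma adjusted p = 3.40e-06). GENCODE pairs transcripts of 3376 and 5622 bases with RefSeq mRNAs of this gene, whose median entered the trend, and with the shorter one the value was 0.19 (limma adjusted p = 0.000123). Dnaja1 overlaps Smu1 on the other strand over 608 bases, and it is not known whether counting used strand.

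The mitochondrial pair moved in opposite directions as deposited. Hspe1 (chromosome 1, 55088148 to 55091317), the gene of the lid HSP10, was at 69.4, 65.6 and 62.5 FPKM in Gsdmd-/- samples and at 48.15, 48.1 and 44.7 FPKM in WT samples. The lowest Gsdmd-/- value was above the highest WT value, and the log2 change was 0.48 (SE 0.0446, limma adjusted p = 1.09e-06). At 774 bases it has the shortest transcript of the 10, and with the trend removed its change was -0.01 (95% interval -0.09 to 0.07, limma adjusted p = 0.790).

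Hspd1 (chromosome 1, 55077833 to 55088243), which encodes HSP60 and shares the 4-unit run shown above, was at 37.9, 37.45 and 39.9 FPKM in Gsdmd-/- samples and at 43.5, 42.6 and 46.1 FPKM in WT samples. Each Gsdmd-/- sample was below each WT sample. Its log2 change was -0.19 (SE 0.0412, limma adjusted p = 0.00100), and it fell under each of the 18 settings tried, with log2 changes of -0.42 to -0.12. The annotated ends of Hspd1 and Hspe1 overlap over 112 bases on opposite strands, and pseudogenes named after them number 5 and 6 in GENCODE M21, so some fragments may be shared.

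**Figure D3:**
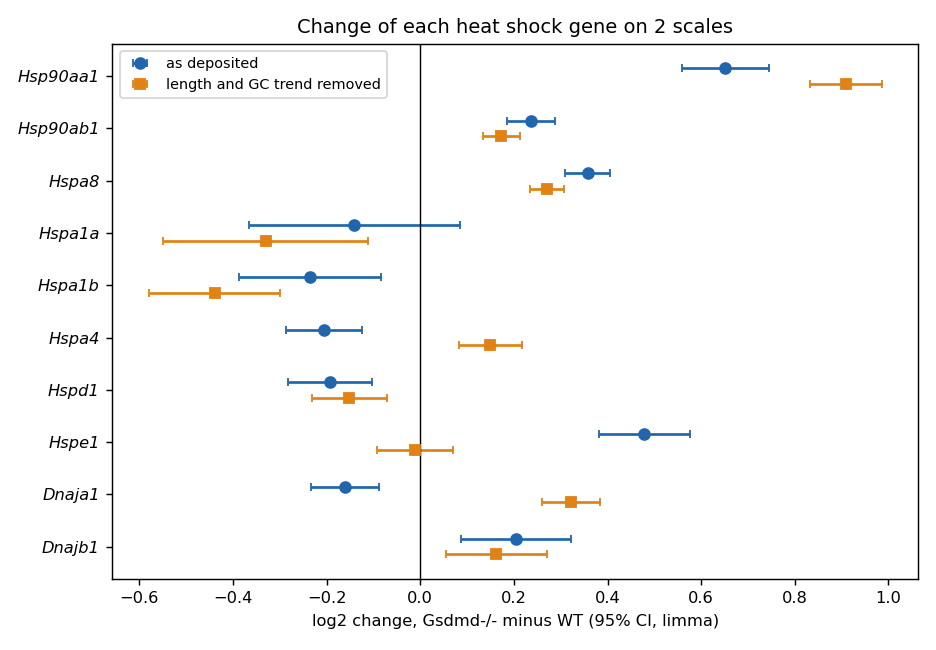
Log2 change (Gsdmd-/- minus WT) of each heat shock gene with its 95% confidence interval from limma, as deposited (blue circles) and after removal of the length and GC trend (orange squares). Hsp90aa1 stays highest on both, Hspa4 and Dnaja1 lie on opposite sides of 0 on the 2 scales, and Hspe1 moves to -0.01.

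Within each group the order of levels, per length, was Hspa8, then Hsp90ab1, with Hspa4, Dnajb1, Hspa1b and Hspa1a at the low end. In Gsdmd-/- samples the ranges of neighbours in this order overlapped for Hspa1b and Hspa1a, and otherwise did not. In WT samples they overlapped for Hsp90aa1 and Dnaja1 (54.8 and 54.7 FPKM on average), for Hspe1 and Hspd1 (47.0 and 44.1 FPKM) and for Hspa1b and Hspa1a. The 10 genes summed to 1712.5 to 1729.6 FPKM in Gsdmd-/- samples and to 1380.6 to 1403 FPKM in WT samples. Hspa8 made up 62.6% to 62.7% of that sum in Gsdmd-/- samples and 60.2% to 60.5% in WT samples. As a share of the FPKM of all listed genes, the sum was 0.303% to 0.312% in Gsdmd-/- samples and 0.284% to 0.294% in WT samples.

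Ratios within a sample do not depend on the scaling between samples, and 5 were compared with a two-sided exact permutation test, whose smallest p with 3 samples against 3 is 0.1. Hsp90aa1 over Hsp90ab1, the inducible against the constitutive HSP90 gene, was 0.236, 0.236 and 0.244 in Gsdmd-/- samples and 0.179, 0.167 and 0.189 in WT samples. It was higher in each Gsdmd-/- sample, by 0.42 on the log2 scale (exact p = 0.1, 0.125 adjusted over the 5 ratios), and by 0.74 with the trend removed. Hspa1a plus Hspa1b over Hspa8, the inducible against the constitutive HSP70 genes, was 0.00534, 0.00524 and 0.00525 in Gsdmd-/- samples and 0.00792, 0.00918 and 0.00718 in WT samples. This ratio was lower in each Gsdmd-/- sample, by -0.61 on the log2 scale (exact p = 0.1, 0.125 adjusted), and by -0.72 with the trend removed. The inducible share thus lay higher for HSP90 and lower for HSP70 in Gsdmd-/- samples than in WT samples.

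Hspd1 over Hspe1 was 0.546, 0.571 and 0.639 in Gsdmd-/- samples and 0.904, 0.886 and 1.03 in WT samples, a log2 difference of -0.68 (exact p = 0.1, 0.125 adjusted). With the trend removed it was -0.15 (exact p = 0.3). Dnajb1 over Dnaja1 averaged 0.163 ± 0.00149 in Gsdmd-/- samples and 0.124 ± 0.00706 in WT samples (SD, n = 3 each, exact p = 0.1, 0.125 adjusted), a log2 difference of 0.40 that turned to -0.13 with the trend removed. With the trend fitted on shortest transcripts, the log2 changes of Dnajb1 and Dnaja1 were 0.186 and 0.190, so the size of this turn depends on the length used. Hspa1b over Hspa1a averaged 1.03 ± 0.128 in Gsdmd-/- samples and 1.13 ± 0.248 in WT samples (SD, n = 3 each, exact p = 0.7), with groups that overlapped.

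**Figure D4:**
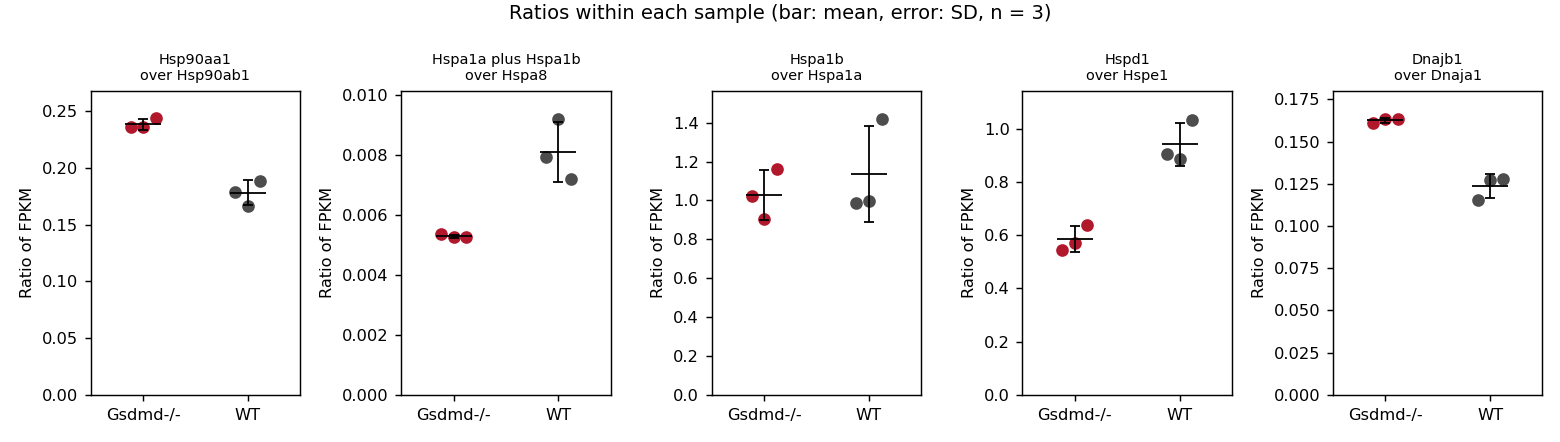
Ratio of FPKM values of 2 heat shock genes (or of a pair over a gene) in each sample, with axes that start at 0, Gsdmd-/- samples in red and WT samples in grey. Bars mark the mean and SD of 3 samples. The groups are apart for 4 ratios and overlap for Hspa1b over Hspa1a.

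The partners of these genes were read from fixed lists, described by counts beside the 40.6% of all tested genes that rose and the 36.9% that fell. The shares to set beside the other counts are 30.4% and 30.1% with the trend removed, and 25.0% and 51.0% in TPM. Of 18 HSP90 cochaperone genes 11 rose and 2 fell, with a median log2 change of 0.28, and in TPM 8 rose and 7 fell, with a median of 0.08. Cdc37, which brings kinases to HSP90, was at 143 ± 3.3 FPKM in Gsdmd-/- samples and 97.6 ± 6.92 FPKM in WT samples (SD, n = 3 each), with a log2 change of 0.55. Trend removal gave 0.97, a value that rests on an annotated length of 7851 bases whose fit to these samples is not known. Ahsa1, an activator of the HSP90 ATPase, rose by 0.39, the immunophilin gene Fkbp4 by 0.42 (0.16 with the trend removed) and Nudc by 0.77 (0.28). After trend removal 7 of the 18, Cdc37 among them, rose and 1 fell, and Ahsa1 did not pass (0.04, limma adjusted p = 0.251). Of the other HSP90 genes, mitochondrial Trap1 rose by 0.39 and Hsp90b1, which encodes the form in the endoplasmic reticulum, by 0.13. After trend removal Trap1 was at 0.26 and Hsp90b1 at 0.32 (limma adjusted p = 3.93e-06). In TPM, Hsp90b1 was at -0.09 (limma adjusted p = 0.0717).

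HSP70 exchange factors and partners were higher for 7 of 10 tested genes and lower for 2, with a median of 0.38, after trend removal 6 rose and 1 fell, and in TPM 5 rose and 3 fell. Hspbp1, an exchange factor, was at 40.1 ± 2.59 FPKM in Gsdmd-/- samples and 23.2 ± 0.688 FPKM in WT samples (SD, n = 3 each, log2 change 0.76, and 0.30 with the trend removed). Stub1, which encodes the ubiquitin ligase CHIP that marks HSP70 clients, rose by 0.74 (0.32 with the trend removed), Bag1 by 0.53 (0.11) and Sil1, an exchange factor of the endoplasmic reticulum, by 0.57 (0.21). Among 8 tested relatives of HSP70 and HSP110, 1 rose and 2 fell, with a median of -0.04, and after trend removal 3 rose and 0 fell. In TPM 0 rose and 7 of the 8 fell, with a median of -0.26. Hspa13 fell by 0.60 and was at -0.10 with the trend removed (limma adjusted p = 0.254), and Hspa4l fell by 0.27 but stood at 0.49 with the trend removed. Hspa2 rose by 0.23, a call lost with the trend removed (0.08, limma adjusted p = 0.397), without Gsdmd-/- replicate 2 (0.14, limma adjusted p = 0.115) and without WT replicate 3 (0.18, limma adjusted p = 0.0900). Hyou1 did not pass (-0.07, limma adjusted p = 0.122).

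Other J protein genes went both ways, with 14 of 35 tested higher and 16 lower, 12 higher and 9 lower after trend removal, and 8 higher and 19 lower in TPM. Dnajc7, which binds both HSP70 and HSP90, rose to 62.2 ± 3.67 FPKM in Gsdmd-/- samples, against 38.0 ± 1.38 FPKM in WT samples (SD, n = 3 each, log2 change 0.70, and 0.60 with the trend removed). Dnajb9, of the endoplasmic reticulum, fell by 0.72 and Dnajb6, a suppressor of protein aggregation, by 0.39, and both also fell with the trend removed (-0.50 and -0.61). Dnajc13, which acts on endosomes, fell by 0.67 and was at -0.10 with the trend removed (limma adjusted p = 0.0524).

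TRiC, the cytosolic chaperonin that folds actin and tubulin, has 8 subunit genes here, of which 7 rose and 0 fell, with a median of 0.27. Cct3 was at 93.9 ± 2.67 FPKM in Gsdmd-/- samples and 63.5 ± 0.743 FPKM in WT samples (SD, n = 3 each, log2 change 0.56). Cct5 rose by 0.49, Cct7 by 0.47 and Tcp1 by 0.36. With the trend removed 6 of the 7 subunits with a known length rose, 0 fell and the median was 0.31, and in TPM 4 rose and 2 fell. Of 6 genes of prefoldin, which hands actin and tubulin to TRiC, 4 rose and 1 fell. Pfdn6 rose by 0.71, Pfdn5 by 0.64, Pfdn1 by 0.63 and Pfdn2 by 0.40. After trend removal 3 rose and 2 fell, with Pfdn5 at 0.15, Pfdn1 at 0.26, Pfdn2 at 0.28 and Pfdn6 not passing (0.10, limma adjusted p = 0.0769).

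Hsf1, the gene of the master factor of the heat shock response, was at 13.1 ± 0.562 FPKM in Gsdmd-/- samples and 10.4 ± 0.430 FPKM in WT samples (SD, n = 3 each, log2 change 0.30, limma adjusted p = 0.000181). With the trend removed its change was -0.03 (limma adjusted p = 0.667). Hsf2 fell by 0.36 and was at -0.14 with the trend removed (limma adjusted p = 0.105), Hsf4 rose by 0.34 at about 1 FPKM and was at -0.13, and Hsbp1, which encodes an HSF1-binding protein, rose by 0.40 and by 0.15 with the trend removed. Small heat shock genes were low, with 3 of 8 listed reaching the test. Hspb6 was at 4.71 and Hspb1 at 1.57 FPKM in Gsdmd-/- samples, against 2.74 and 0.590 FPKM in WT samples, and Hspb1 and Hsf4 entered the test through their Gsdmd-/- level. Their log2 changes were 0.61 for Hspb6 and 0.71 for Hspb1, and with the trend removed 0.17 (limma adjusted p = 0.0499) and 0.06 (limma adjusted p = 0.683, which does not pass). Cryab did not pass (0.11, limma adjusted p = 0.427), and passed without Gsdmd-/- replicate 2 (0.28, limma adjusted p = 0.0129) and, in the other direction, with the trend removed (-0.38, limma adjusted p = 0.0304).

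Of 8 genes of mitochondrial protein quality control, 5 rose and 2 fell, and after trend removal 3 rose and 0 fell. The protease genes Clpp, Htra2 and Spg7 rose by 0.67, 0.46 and 0.37, of which Clpp and Htra2 did not pass with the trend removed (0.09 and 0.07, limma adjusted p = 0.289 and 0.134), and Yme1l1 fell by 0.44 but stood at 0.17 with the trend removed. Immediate early genes, which respond to stress and to cell isolation within minutes, rose in 3 and fell in 4 of 9 tested cases, with a median of -0.03. Fos was at 35.6 ± 1.46 FPKM in Gsdmd-/- samples and 50.9 ± 0.705 FPKM in WT samples (SD, n = 3 each) with a log2 change of -0.50. Dusp1 and Zfp36 fell by 0.39 and 0.25, Atf3 rose by 0.20, after trend removal 0 rose and 5 fell, and in TPM 0 rose and 7 fell. Whether isolation of the cells bears on the heat shock genes was not tested.

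**Figure D5:**
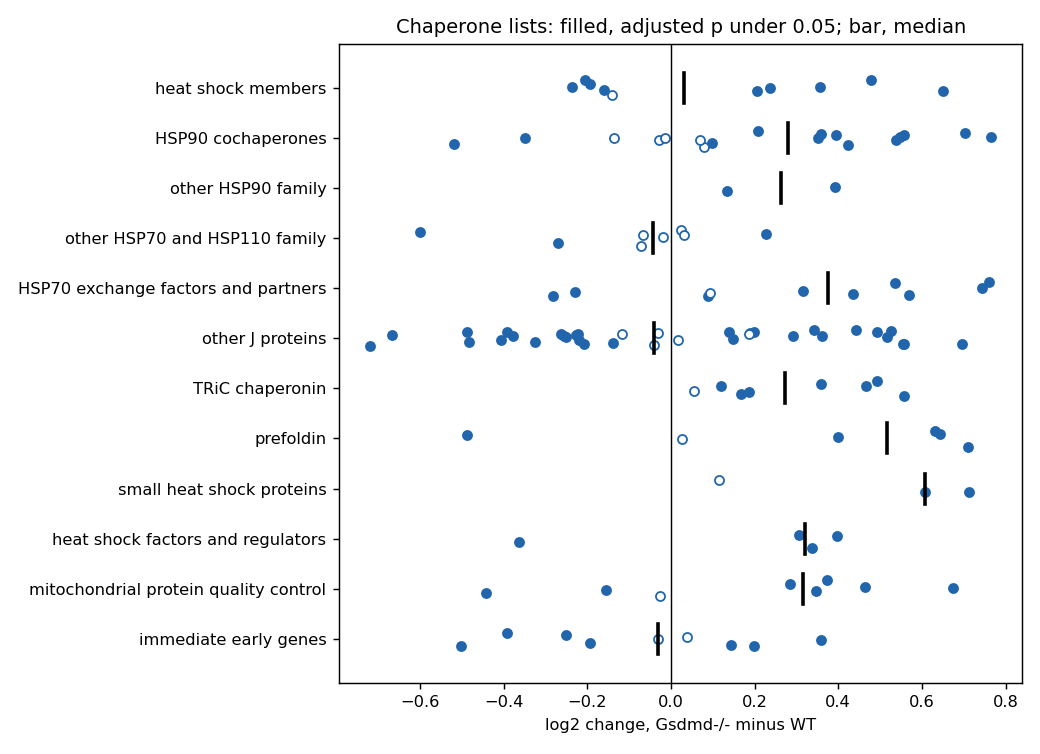
Log2 change (Gsdmd-/- minus WT) of each tested gene in the heat shock group and in the lists of partners, with filled points for an adjusted p under 0.05 and a bar at the median. The 8 TRiC subunits lie above 0, while J proteins and the heat shock group spread to both sides.

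The genes outside the lists, averaging at least 10 FPKM, whose levels over the 6 samples were most like the mean standardized level of the 5 heat shock genes that rose were Trim12a, Nupr1 and Svbp, with Pearson's r of 0.9998, 0.9997 and 0.9997. For the 4 that fell they were Bcl9 with 0.9998, Trim21 with 0.998 and Fam53c with 0.998. An r over 0.99 was reached by 513 and 234 of the 4776 genes compared. With 2 groups of 3, such an r rests mainly on the difference between the groups, and it is given as a description.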

How the data were processed

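Per the labels, libraries were sequenced on a BGISEQ-500. The submitters' processing notes name Bowtie2 2.2.5 and GRCm38.p6. Not given in the sources used here are the counting program, its annotation, strand use and filters. The authors deposited 1 value per gene and sample with no stated unit, read here as FPKM from the size of its steps. Genes that reached 1 FPKM in 3 or more of the 6 samples (10005) were tested with limma 3.58.1 in R 4.3.3 (trend and robust settings) on log2(FPKM + 1), a scale that understates changes of low genes, with Benjamini-Hochberg adjustment and a threshold of 0.05. Log2 changes are Gsdmd-/- minus WT. The trend was a natural spline with 5 degrees of freedom each on log2 length and GC content of GENCODE M21 transcripts, removed from each sample. Lengths were known for 98.5% of tested genes. Ratios used FPKM with no pseudocount. Symbols were matched through gene identifiers, of which 16950 were found in RefSeq. Loci and promoter windows are RefSeq's in GRCm38.p6. Scripts were tested on simulated data. The members and lists were chosen with earlier results of these data known. Named were the 10 members, Gsdmd, up to 4 genes with the smallest p of each list and the 3 most alike genes; a few other genes were named after their values were seen. Alternatives were pseudocounts of 0.1 and 0.01, TPM, quantile and median-ratio scaling, other filters, limma without trend and robust settings, a replicate block and leaving out each sample.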

Additional observations from a re-analysis of the deposited data

How the results depend on the processing

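The count of all genes called stayed within 1.5 times under each alternative, and with each sample left out in turn it was 7375 to 7604. In TPM 2498 genes rose, and 3 of the 10 heat shock genes rose in TPM and 3 after quantile normalization, against 5 as deposited. With a sample left out 5 rose and 4 to 5 fell. Heat shock genes that turned direction were Hsp90ab1 (-0.026) and Hspa8 (-0.083) after quantile normalization, and Hspa4 (0.15), Hspe1 (-0.012) and Dnaja1 (0.32) with the length and GC trend removed. With the shortest transcript's length, an alternative chosen after seeing the data, Hspa4 was at 0.16 and Dnaja1 at 0.19, while Hspe1 did not turn (0.087, limma adjusted p = 0.0673). Among the named partners, turned with the trend removed (and with the shortest transcript) were Hspa4l 0.49 (0.48), Hyou1 0.050 (0.057), Cryab -0.38 (-0.30), Hsf1 -0.027 (-0.0025), Hsf4 -0.13 (-0.087), Yme1l1 0.17 (0.16) and Atf3 -0.0059. In TPM Hsp90b1 (-0.086), Cryab (-0.046) and Atf3 (-0.024) turned. The log2 difference of Dnajb1 over Dnaja1 was -0.13 with the trend removed on median transcript lengths. That of Hspa1b over Hspa1a ran from -0.22 to 0.046 with a sample left out, the last without WT replicate 3. The cause was not tested. Correlations of the deviations of same-numbered samples were -0.08, 0.13 and 0.01, and those of differently numbered samples ran from -0.166 to 0.160. With 3 samples a side this cannot tell whether the numbers mark a shared animal or day, which the labels do not say. With the replicate block 7801 genes were called, 5 heat shock genes rose and 4 fell. Levels near 3 FPKM limit what can be said of Hspa1a and Hspa1b.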
